A study of Homo sapiens with 4 samples.

Results

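Cholesterol and fatty acid synthesis was followed through 8 genes in the list of YTHDF2-enriched RNA regions of HCCLM3 cells. These are ACACA, FASN, SCD, FDFT1, DHCR7, HMGCS1, SREBF2 and INSIG1. A peak was given to the gene in its exon or intron annotation, or, for the other classes, to the gene whose span on hg38 holds the summit. This gave 28 of the 14858 peaks and 8 of the 7949 genes with a peak. The genes were chosen with earlier results of this list known, so that all 8 have a peak is not a finding.

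HCCLM3 is a metastatic human hepatocellular carcinoma line, and all libraries came from unmodified (WT) cells. RNA pulled down with an antibody to YTHDF2, a cytosolic reader of N6-methyladenosine (m6A), made up 2 libraries, and the matching input RNA made up 2 more. Neither a control pulldown nor cells without YTHDF2 are among the groups, so a peak is enrichment over input and not proof of binding. The deposited list joins the libraries into 1 value per peak. No value per library, spread between replicates or sequencing depth can be given for any gene below.

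Fatty acids and cholesterol are both built from cytosolic acetyl-CoA. Acetyl-CoA carboxylase makes malonyl-CoA, fatty acid synthase extends the chain, and stearoyl-CoA desaturase adds a double bond. The mevalonate pathway leads from acetyl-CoA through squalene to the sterols. SREBP transcription factors, held in the endoplasmic reticulum by INSIG proteins when sterols are plentiful, switch on the genes of both routes, and liver cells use them heavily.

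Sequence upstream of these genes is shown first, because SREBP is known to act in promoters together with the CCAAT-binding factor NF-Y. Sequences are from RefSeq (GRCh38.p14), which gave a window from 250 bases before to 50 after the start for 6 of the 8 genes. The letters CCAAT, read on both strands, occurred in at least 1 window of 6 of these 6 genes, against 39.7% of 27305 genes with a window and 34.6% of 35116 windows. Among genes with a window of the pathway lists described at the end, they occurred in 83.3% of 18 cholesterol synthesis enzymes, 68% of 25 fatty acid genes, 61.5% of 13 uptake and storage genes and 47.4% of 19 SREBP genes. The letters TCACNCCAC, a form of the sterol regulatory element, occurred on either strand in SREBF2 alone of the 6, in 0 of the 18 cholesterol enzymes, and in 1.39% of all genes. ACACA, HMGCS1 and DHCR7 each have more than 1 window, which favours a CCAAT match. For each of them, a window held no match upstream of the start. Stretches of ACACA are not shown. The matches did not overlap each other in the stretches below, which lie upstream of the start and show each match in capitals. They describe the genes and not the YTHDF2 signal: no peak overlapped any window of the 6 genes, and a match is not by itself a binding site.
SREBF2 (chr22:41832957-41833018, plus strand): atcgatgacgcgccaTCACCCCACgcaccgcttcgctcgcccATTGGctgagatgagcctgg
HMGCS1 (chr5:43313493-43313582, minus strand): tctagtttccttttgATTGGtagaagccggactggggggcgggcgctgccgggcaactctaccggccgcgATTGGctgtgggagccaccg
DHCR7 (chr11:71448422-71448502, minus strand): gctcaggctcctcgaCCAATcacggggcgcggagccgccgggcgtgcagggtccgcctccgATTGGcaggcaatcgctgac
SCD (chr10:100346989-100347066, plus strand): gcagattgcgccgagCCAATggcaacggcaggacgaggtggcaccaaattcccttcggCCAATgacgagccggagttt
INSIG1 (chr7:155297693-155297727, plus strand): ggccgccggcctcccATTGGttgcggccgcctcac

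Enrichment over input was moderate for most of the 8 transcripts and had its highest folds in ACACA, the gene with the fewest fragments. A peak is said to pass when the caller's q is 0.01 or less. By that rule 17 of the 28 peaks passed (60.7%), against 37.3% of all peaks, and 7 of the 8 genes had a passing peak, against 50.2% of all genes with a peak. HMGCS1 was the gene without one. Among peaks with 20 or more RIP fragments at the summit, 13 of 15 passed, against 68.5% in the whole list. The shares are descriptions of a chosen set and were not tested.

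Each fold enrichment is the authors' own value, RIP fragments set against background where the peak is highest. The fragments and the background that give this fold were computed back from it and the deposited p as the processing notes describe. Intervals below are exact 95% Poisson intervals of the RIP fragments with the background held fixed. They cover counting error only, since PCR copies cannot be told from separate molecules here. The median of the highest fold of each gene was 2.59 for the 8 genes and 2.61 for all genes with a peak. On the log2 scale these medians were 1.37 and 1.38. The 2.61 is also the fold of ACACA exon 39, which rested on 3 fragments, and 1576 list peaks share that fold. The comparison of medians is therefore not matched for fragments. The 15 peaks outside ACACA had a median fold of 1.84, against 2.41 for all peaks, and 11 of them lay below that list median. They rested on 36 to 214 fragments, against a median of 12 in the list. For all list peaks with 20 or more fragments, a closer match, the median fold was 2.

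**Figure D1:**
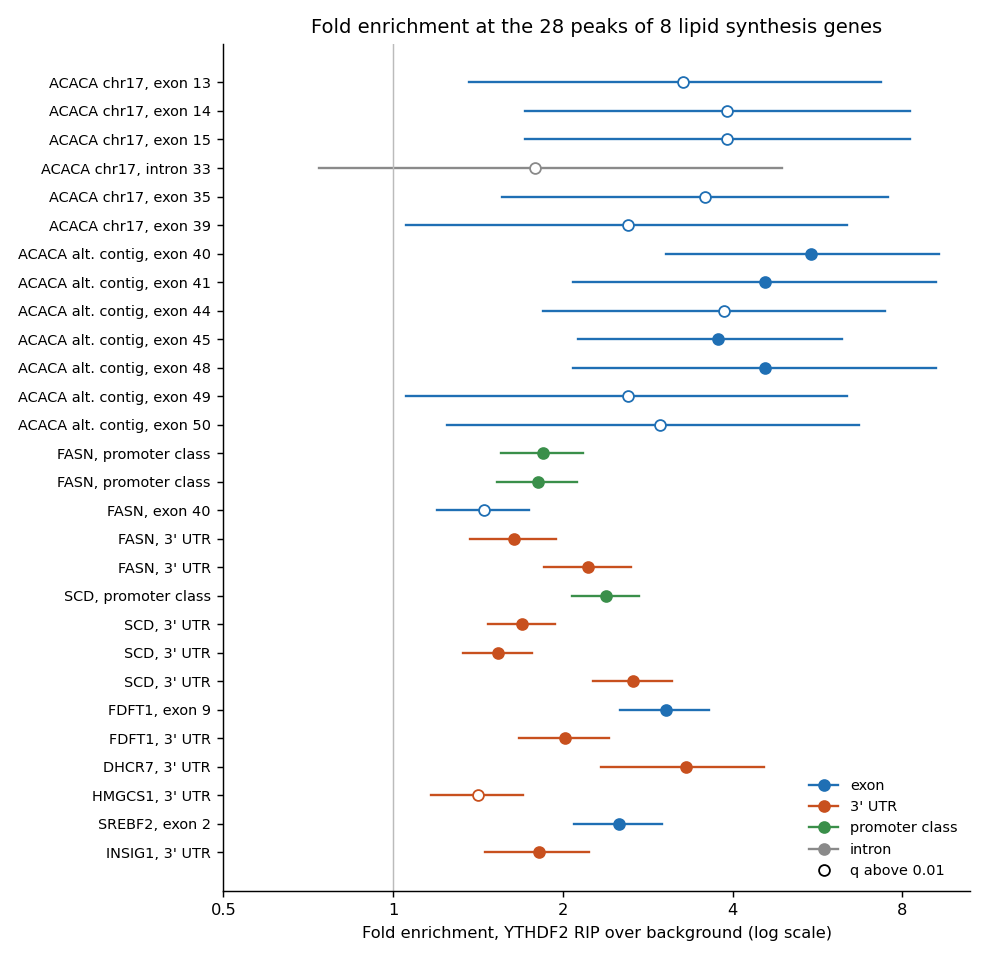
Fold enrichment of YTHDF2 RIP over background (log axis) for each of the 28 peaks, with the 95% counting interval as a bar and genes read from 5' to 3'. Filled points have a q of 0.01 or less. ACACA has the highest folds, up to 5.51, and the widest intervals, while FASN, SCD and HMGCS1 lie between 1.41 and 2.67.

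**Figure D2:**
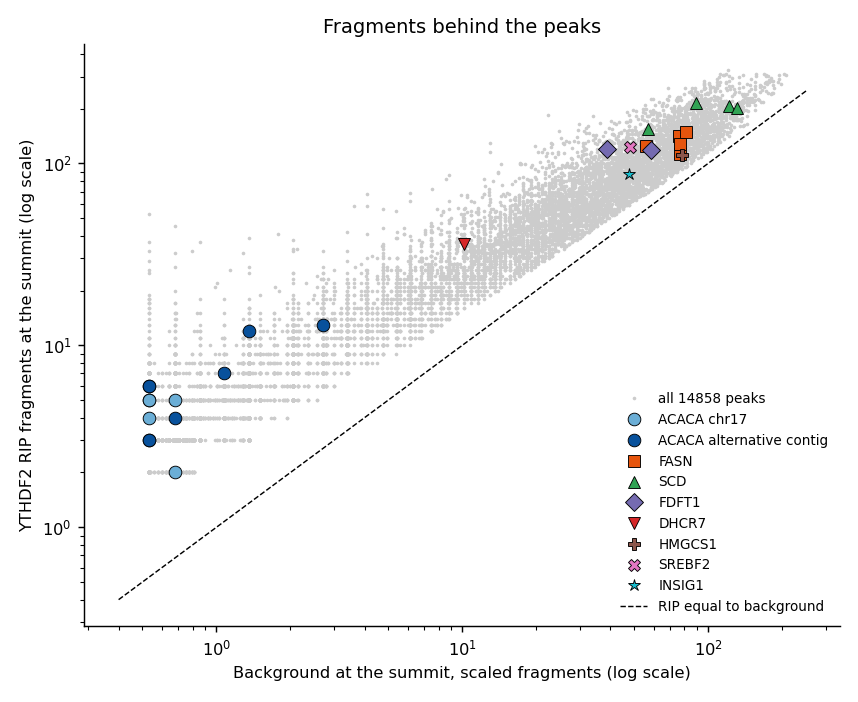
RIP fragments against background at the summit, both on log axes, for all 14858 peaks (grey) and the 28 peaks of the 8 genes (coloured). ACACA sits at 2 to 13 fragments over a background of at most 2.72, DHCR7 at 36 over 10.2, and the other genes at 87 to 214 fragments.

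ACACA encodes acetyl-CoA carboxylase 1, the rate-limiting enzyme of fatty acid synthesis. It had 13 peaks, a number reached or passed by 11 of the 7949 genes, and 12 of the 13 lay in exons. On chr17, where RefSeq places the gene at 37084992 to 37406836 on the minus strand, there were 6 peaks and none passed. Counted along the 54-exon transcript NM_198837, they lay in exons 13, 14, 15, 35 and 39 and in intron 33. The peaks in exons 14 (37251719 to 37252089) and 15 (37248284 to 37248639) were the highest there, each with 5 fragments over a background of 0.533 and 3.91-fold (1.71 to 8.26). Their −log10 q of 1.92 was just short of the threshold. A background of 0.533 is the lowest in the whole list, and exons 13 and 39 had it too. Whether it was measured from input reads at these exons cannot be told from the list. Exon 35 also had 5 fragments, at 3.57-fold (1.56 to 7.54), exon 13 had 4 at 3.26-fold (1.36 to 7.33) and exon 39 had 3 at 2.61-fold (1.06 to 6.37). The intron peak rested on 2 fragments, and its interval of 0.739 to 4.90 around 1.79-fold includes 1.

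The other 7 ACACA peaks lay on an alternative contig of chromosome 17 (KI270857v1), and 4 of them passed. Exon 40 (1397460 to 1397837 of the contig) had 12 fragments over 1.36 and the highest fold of the gene, 5.51 (3.05 to 9.31), with a −log10 q of 5.47. Exons 41 and 48 each had 6 fragments over 0.533, the list's lowest background, at 4.57-fold (2.09 to 9.17) and a −log10 q of 2.93. Exon 45 had the most fragments, 13 over 2.72, and 3.76-fold (2.13 to 6.25). Exon 44 missed the threshold narrowly at a q of 0.01001 (7 fragments, 3.86-fold), and exons 49 and 50 did not pass, with 3 and 4 fragments. Median fragments were 6 on the contig and 4.5 on chr17. The 4 passing peaks of 13, all on the contig, had 6 to 13 fragments. Among all list peaks of 2 to 13 fragments 9.84% passed, a share not matched for fragments within that range. The intervals of every contig peak overlapped those of the chr17 exon peaks, and a difference in fold between the contigs was not tested. The contigs hold peaks of different exons, so contig and position along the transcript cannot be told apart.

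The copies divided the transcript without overlap. On chr17 no exon peak lay beyond exon 39, and the 94051 bases of the gene downstream of that peak held no peak. On the contig no ACACA peak lay before exon 40. Exon or intron peaks on this contig fell in 10 genes, and ACACA was the only one of them with a peak on chr17 as well. In the whole list 25 genes had exon or intron peaks both on a main chromosome and on another contig. Whether the aligner's choice between near-identical copies shapes their folds was not tested. Without the contig ACACA had no passing peak, and 6 of the 8 genes had one.

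**Figure D3:**
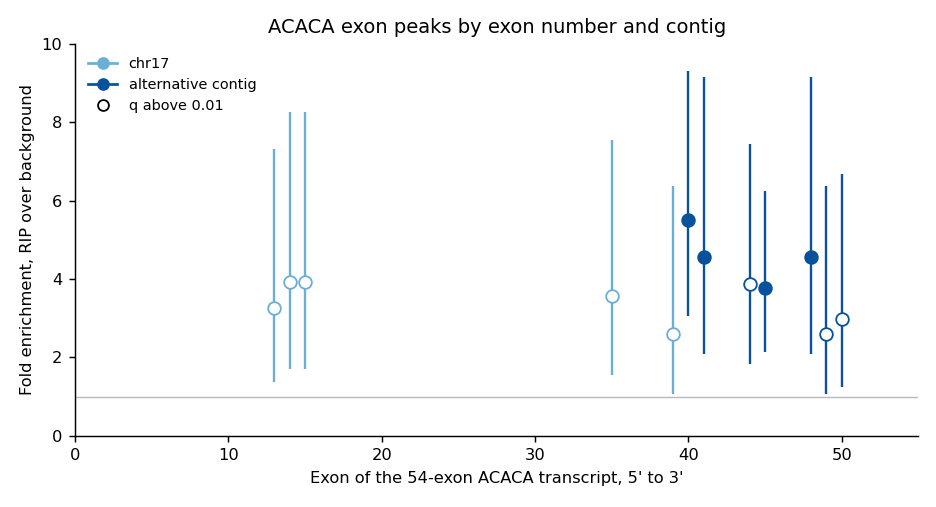
Fold enrichment of the 12 ACACA exon peaks against exon number in the 54-exon transcript, coloured by contig, with 95% counting intervals and open points for a q above 0.01. The peaks of exons 13 to 39 are on chr17 and open, and those of exons 40 to 50 are on the alternative contig, with 4 of 7 filled.

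FASN encodes fatty acid synthase, the multifunctional enzyme that builds palmitate. Its 5 peaks on chromosome 17 (gene span 82078338 to 82098236, minus strand) rested on 112 to 148 fragments, and 4 passed. The strongest was the 3' UTR peak at the end of the gene (82078218 to 82078575), with 125 fragments over 55.7, 2.22-fold (1.85 to 2.64) and a −log10 q of 11.7. A further 3' UTR peak (82078942 to 82079256) had about the same fragments, 127, over a higher background of 77.1 and so 1.64-fold (1.37 to 1.95). The exon 40 peak was the weakest at 1.45-fold (1.20 to 1.74, 112 fragments over 76.8) and did not pass, with a −log10 q of 1.47. The promoter-class peaks of FASN had 1.84-fold (1.55 to 2.17, 141 fragments) and 1.80-fold (1.53 to 2.12, 148 fragments). The interval of the peak at the gene's end did not overlap that of exon 40. It overlapped those of the other 3' UTR peak and both promoter-class peaks, so its lead over them is not resolved. The summits of the promoter-class peaks lay 5757 and 7014 bases inside the gene, so they are not at the FASN start. They carry that class because the deposited annotation measured them from SNORD134, a small nucleolar RNA gene within FASN (82089960 to 82090140), which neither peak overlaps.

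SCD encodes stearoyl-CoA desaturase, which makes oleate from stearate. All 4 of its peaks on chromosome 10 (gene span 100347233 to 100364826, plus strand) passed. The strongest stood at the 2 ends of the transcript. The promoter-class peak (100347405 to 100347740) had the most fragments of any of the 28 peaks, 214 over 89.1, and 2.39-fold (2.08 to 2.73) with a −log10 q of 24.5. Its summit lay 296 bases inside the gene, and the peak began 123 bases after the window of the promoter shown above. The last 3' UTR peak (100364562 to 100364920) had 154 fragments over 57.1 and 2.67-fold (2.27 to 3.12), with its summit 138 bases before the end of the gene. Between them lay a pair of wide 3' UTR peaks of 1253 and 856 bp. They had 206 fragments over 121 and 202 over 131, or 1.69-fold (1.47 to 1.94) and 1.54-fold (1.33 to 1.76). Both intervals lay below those of the end peaks. The middle pair had more RIP fragments than the last peak and a much higher background, a contrast between summits of 1 combined list and not between replicates.

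HMGCS1 encodes the cytosolic HMG-CoA synthase, which acts early in the mevalonate pathway. Its single peak covered 1036 bp of the 3' UTR (chromosome 5, 43289301 to 43290336, minus strand). It was supported by 111 fragments over 78.2, 1.41-fold (1.17 to 1.70), and did not pass, with a −log10 q of 1.08. Only 4.43% of all peaks had a lower fold, and 10.1% of those with 20 or more fragments did. The fragments were close in number to those of FASN exon 40 (112), over a background close to that exon's 76.8.

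FDFT1 encodes squalene synthase, which joins farnesyl units in the step that commits the pathway to sterols. It had an exon and a 3' UTR peak on chromosome 8 (gene span 11795582 to 11839298, plus strand), both passing. The peak in exon 9 of 10 of NM_001287742 (11831628 to 11831943) had 120 fragments over 38.7, 3.04-fold (2.53 to 3.64) and a −log10 q of 21.2. The 3' UTR peak (11838611 to 11839399) had 119 fragments over 58.5, 2.02-fold (1.67 to 2.41) and a −log10 q of 8.52. The pair had nearly equal fragments, and the intervals of their folds did not overlap. Among peaks with 20 or more fragments, 85.9% had a lower fold than the exon 9 peak.

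DHCR7 encodes 7-dehydrocholesterol reductase, which completes cholesterol synthesis. Its only peak (chromosome 11, 71434259 to 71434621, minus strand), in the 3' UTR, had 36 fragments over 10.2 and 3.30-fold (2.34 to 4.54). The −log10 q was 6.86. This was the highest fold of the 8 genes outside ACACA, and 89.2% of list peaks with 20 or more fragments were lower. Its interval overlapped those of the exon 9 peak of FDFT1 and the last peak of SCD, so their order is not resolved. The intervals of HMGCS1 (1.17 to 1.70) and DHCR7 did not overlap.

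SREBF2 encodes SREBP-2, the transcription factor that drives the cholesterol genes. It had 1 peak, in exon 2 of 19 of NM_004599 (chromosome 22, 41867115 to 41867433, plus strand), with 123 fragments over 48.3, 2.52-fold (2.10 to 3.0) and a −log10 q of 15.3. Of peaks with 20 or more fragments, 73.4% had a lower fold. No 3' UTR peak of SREBF2 was in the list. The gene also carries, in an intron, the microRNA miR-33a, known to repress cholesterol export genes. Its mature sequence is shown with the seed (bases 2 to 8) in capitals. No peak overlapped the hairpin, which begins 33703 bases downstream of the exon 2 summit.
hsa-miR-33a-5p (chr22:41900949-41900969, plus strand): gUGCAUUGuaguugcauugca

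INSIG1 encodes the endoplasmic reticulum protein that retains SREBP with its escort SCAP. Its single peak, at the end of the 3' UTR (chromosome 7, 155309817 to 155310294, plus strand), had 87 fragments over 47.6, 1.81-fold (1.45 to 2.23) and a −log10 q of 3.99, and passed. It is the only one of the 21 peaks on main chromosomes that also overlapped another gene span, LOC105375592. The list gives no strand for reads, so the 2 genes cannot be told apart there. The intervals of INSIG1 and SREBF2 overlapped between 2.10 and 2.23.

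By position, 9 of the 28 peaks (32.1%) were in 3' UTRs, against 27.6% of the list, and 15 (53.6%) in exons, against 20.8%. The exon count was mostly ACACA. Of the 15 peaks of the other 7 genes, 9 (60%) were in 3' UTRs and 3 (20%) in exons. A 3' UTR peak occurred in 6 of the 8 genes, and 8 of the 9 passed. These 9 had folds of 1.41 to 3.30 and a median of 1.81, against 2.13 for all 3' UTR peaks and 1.95 for those with 20 or more fragments. ACACA and SREBF2 were the genes with exon peaks and no 3' UTR peak.

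The peaks of SCD, FASN, FDFT1 and INSIG1 nearest the end of the gene ran past it, by 94, 120, 101 and 59 bases in that order. Their summits lay 138, 154, 448 and 322 bases before it. In the list 34.1% of 3829 3' UTR peaks ran past the gene end, and 38.3% had a summit within 500 bases of it, against 4 of 9 here (44.4%). The DHCR7 summit lay 7236 bases before the end of its RefSeq span, and that of HMGCS1 2808 bases. All these distances are to the end of the gene's span. Ends of single transcripts were not used, so a peak far from the span's end can still lie at the end of an mRNA. Peaks over 700 bp wide made up 4 of the 28, namely those of HMGCS1 (1036 bp), FDFT1 (789 bp) and SCD (1253 and 856 bp), against 5.89% of the list. All 4 were 3' UTR peaks with a fold of 2.02 or less. The median width of all peaks was 349 bp, and 6 of the 13 ACACA peaks were at the list's minimum of 315 bp.

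**Figure D4:**
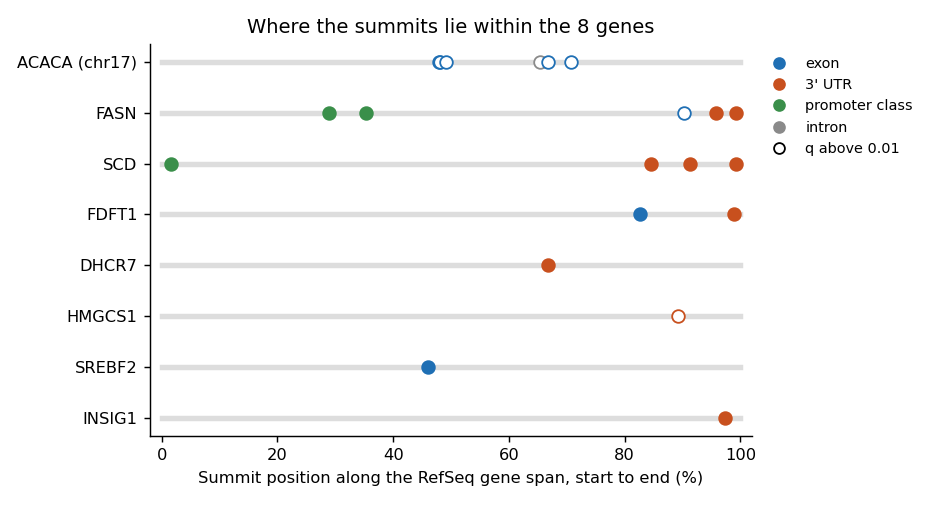
Position of each summit along the RefSeq span of its gene, from start (0%) to end (100%), for the 21 peaks on main chromosomes, coloured by class and open for a q above 0.01. FASN, SCD, FDFT1 and INSIG1 each have a filled 3' UTR point beyond 97%, while the ACACA summits on chr17 lie between 47.9% and 70.8%.

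The rest of the pathway was covered in part. The share of all genes in the genome that have a peak was not computed. The counts of genes with a peak in each list below therefore have no share to be set against. Of 23 cholesterol synthesis enzymes, 11 had a peak and 7 a passing one (63.6% of the 11, against 50.2% of all genes with a peak), with a median best-peak fold of 2.36. ERG28, a scaffold protein of sterol demethylation known from yeast, led with 4.46-fold (3.35 to 5.83) over 52 fragments. Of the genes other than the 8, it was followed by mevalonate kinase MVK (2.65-fold, 2.05 to 3.38) and squalene epoxidase SQLE (2.59-fold, 2.09 to 3.19), all in 3' UTRs, while DHCR7 and FDFT1 lay between ERG28 and MVK. Lanosterol demethylase CYP51A1 (1.99-fold, 3' UTR) and farnesyl diphosphate synthase FDPS (1.99-fold, promoter class) also passed. Besides HMGCS1, the 3' UTR peaks of MSMO1 (1.38-fold) and SC5D (1.55-fold), both enzymes that oxidise sterol intermediates, and of GGPS1 (2.36-fold over 17 fragments) did not pass. The other 12 enzymes had no peak. The list holds no value for a gene without a peak, so this gives no level for them.

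Of 27 genes of fatty acid synthesis, elongation and desaturation, 14 had a peak and 11 a passing one (78.6% of the 14, against 50.2% of all genes with a peak), with a median best-peak fold of 2.64. ACACB, the carboxylase linked to mitochondria and the paralog of ACACA, had 6.15-fold (3.72 to 9.64) in exon 39 of 53, over 17 fragments. TECR, the last reductase of the elongation cycle, had 4.38-fold (3.31 to 5.69) in its 3' UTR over 54 fragments. For ME1, ACSS2 and HSD17B12 the highest fold belonged to intron peaks of 4 or 5 fragments that did not pass. Their passing peaks had 1.64-fold in the 3' UTR of malic enzyme ME1, 2.95-fold in an exon of acetyl-CoA synthetase ACSS2, and 2.23-fold in the 3' UTR of HSD17B12, a reductase of the elongation cycle. No peak was listed for ELOVL6 or FADS2. As in ACACA, the highest peak of ACACB lay in an internal exon.

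Of 25 genes that process or regulate SREBP, 18 had a peak and 10 a passing one (55.6% of the 18, close to the 50.2% of all genes with a peak), with a median best-peak fold of 2.20. The site-2 protease gene MBTPS2 had 3.95-fold (2.14 to 6.80) over 11 fragments in an exon. ERLIN1, a membrane protein of the endoplasmic reticulum, had 3.94-fold (2.27 to 6.44) over 14 in its 3' UTR. NFYC, a subunit of the CCAAT-binding factor, had 3.85-fold (2.62 to 5.47) over 29. FAF2, which acts in INSIG1 degradation, had 3.18-fold over 13. The ubiquitin ligase gene FBXW7 passed with a 3' UTR peak of 3.02-fold. The INSIG1 paralog INSIG2 (1.43-fold) and SCAP (2.29-fold over 3 fragments) did not pass, and SREBF1 had no peak.

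Of 20 genes of sterol uptake, transport and lipid storage, 9 had a peak and 6 a passing one (66.7% of the 9, against 50.2% of all genes with a peak), all 6 in 3' UTRs, with a median best-peak fold of 2.13. The high-density lipoprotein receptor SCARB1 had 2.56-fold (2.04 to 3.19), sterol acyltransferase SOAT1 2.40-fold (1.76 to 3.20) and the lipid droplet proteins PLIN3 and PLIN2 2.13-fold and 2.05-fold. The lysosomal cholesterol transporter NPC1 had 1.97-fold. Against the median of 2.61 over all genes with a peak, the fatty acid list was at 2.64 and the other 3 lists were lower. These medians are not matched for fragments, and no list was tested.

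**Figure D5:**
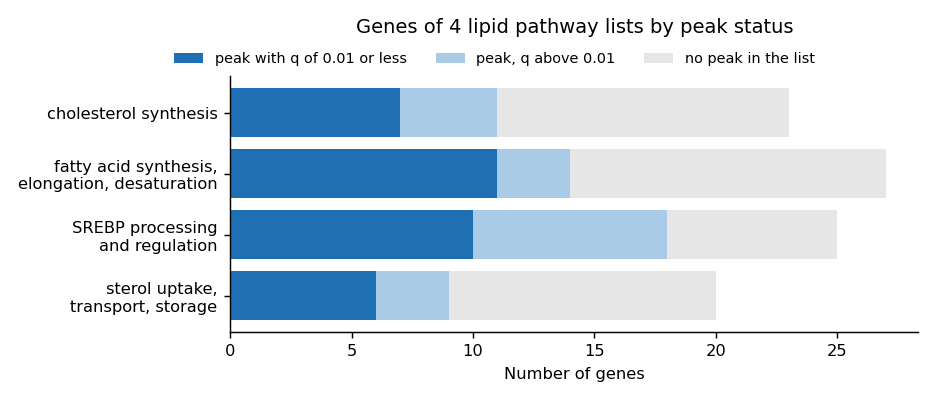
Number of genes in each of 4 pathway lists with a peak at a q of 0.01 or less (dark), with other peaks only (light) and without a peak (grey). The passing counts are 7 of 23, 11 of 27, 10 of 25 and 6 of 20 from top to bottom. The 8 genes described above belong to the first 3 lists.

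As a check of the labelled liver cell type, 4 of 11 hepatocyte markers had a peak (APOB, HNF4A, KRT8 and KRT18) and the keratins KRT8 and KRT18 passed. Of 10 markers of blood, endothelial and stromal cells, 4 had a peak and HBB alone passed. Over all genes with a peak, 50.2% had a passing one. Both sets of markers had a peak about equally often, so the check does not tell the cell types apart. A peak list cannot give the level of any marker. In bulk RNA, more cells with a transcript and more of it per cell cannot be told apart.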

How the data were processed

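The labels describe 4 libraries, 2 of YTHDF2 RIP and 2 of input, with RNA taken by a bead-based RIP kit and sequenced from stranded libraries of total RNA, per the labels' protocols. HISAT2, MACS2 and hg38 are named in the submitters' processing notes; their versions and options, and the way libraries were combined, are not stated in the sources used here. Nothing says whether replicates came from separate cultures. Per the file headers, the deposited list gives each peak's fold enrichment (a ratio), −log10 p, −log10 q, a caller score (not used), width and summit offset.

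RIP fragments k and background were solved from the deposited fold, (k + 1) / (background + 1), and the Poisson p of more than k. The solutions met every −log10 p within 0.000189, and 100% of 1992 simulated peaks were recovered. Python 3.11.15 with scipy 1.17.1 was used. Where several spans held a summit, a protein-coding gene was preferred, next the gene as deposited, and last the one of least length. Summits outside exons and introns on other contigs kept the deposited gene. Gene names and spans are RefSeq's (GRCh38.p14).

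Members and lists were chosen with earlier results of these data known. Named genes are the 8 members and, per list, up to 5 others with the highest best-peak fold among genes with a passing peak. MSMO1, SC5D, GGPS1, INSIG2 and SCAP were added after their values were seen. Listed genes without a peak could be named as such, and some are not reported here. No sequence of the peaks is shown, since no genome was used here. Alternatives changed the q and fold thresholds, gene assignment, contigs, summaries and pseudocount.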

Additional observations from a re-analysis of the deposited data

How the results depend on the processing

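Gene assignment mattered most. The deposited gene is that of the nearest transcription start, and it was the member itself for 4 of the 28 peaks. With it 3 peaks in place of 17 passed, 3 genes in place of 7 had a passing peak, and 4 in place of 11 fatty acid genes did. Uptake and storage genes with a passing peak then numbered 4 in place of 6. At a −log10 q of at least 5, SREBP genes with a passing peak numbered 5 in place of 10, and uptake and storage genes 2 in place of 6. Without ACACA, an alternative chosen after seeing the data, the 3' UTR share was 60% in place of 32.1%. The 95% Clopper-Pearson interval of the 32.1%, 15.9 to 52.4, treats the 28 peaks as independent. They are not, since 13 came from ACACA alone, so the interval gives no spread between genes. Without the pseudocount the highest ACACA fold on chr17 was 9.38 in place of 3.91, both at exons 14 and 15. On the contig it was 11.3, at exons 41 and 48, in place of 5.51 at exon 40. This way 5 ACACA peaks left their counting interval, and the other 23 peaks did not. The remaining alternatives moved counts by less than 1.5 times: 12 to 22 passing peaks, 6 or 7 genes, and a median best-peak fold of 2.29 to 2.67. No paired analysis was possible because the list holds no value per library, and no replicate could be left out. Fragments limit ACACA, where 2 to 13 leave wide intervals.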
